A study of Homo sapiens with 9 samples.

Results

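The levels of 10 genes that encode cytokines or cytokine receptors were followed in MDA-MB-231 cells, an established human triple-negative breast cancer line, that had received DMSO as vehicle, rimonabant or TXX-1-10. Rimonabant is a blocker of CB1, a cannabinoid receptor. TXX-1-10 was made as a derivative of rimonabant. The genes were taken by name, namely the secreted factors IL11, IL6, LIF, CXCL8 and CXCL1 and the receptors IL6ST, LIFR, IL7R, IL3RA and IL1R1, and are 10 of the 27615 genes in the longest list. The series holds 3 libraries per treatment and 9 in all, each a list of genes with a read count and an FPKM value, which scales the count to gene length and to a library total. All libraries come from this one line, and neither the dose nor the time of treatment of the sequenced cells is given in the sources used here, so whether the doses of rimonabant and TXX-1-10 were matched is not known.

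Cytokines are secreted proteins that act on neighbouring cells, or on the cell that releases them, through receptors at the surface. IL6, IL11 and LIF form one family, because each assembles a receptor that contains gp130, the product of IL6ST, and signals through JAK kinases and STAT3. LIF uses LIFR as the partner of gp130. CXCL8 and CXCL1 are chemokines that draw neutrophils to a tissue. IL1R1 binds interleukin 1 and activates NF-kB, a transcription factor under which the genes of IL6, CXCL8 and CXCL1 are induced. IL7R and IL3RA are best known from lymphocytes and from blood progenitors, where they bind IL-7 and IL-3. Breast cancer cells of the mesenchymal type, to which this line belongs, are known to release IL6 and CXCL8.

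The lists stop at different points of one common order of genes, so a gene can be absent from a list, and absence is not a level of 0. IL11, LIF and IL6ST were listed in all 9 libraries. CXCL8, CXCL1, IL7R and LIFR were listed in 8, all except rimonabant replicate 1, whose list is the shortest with 4237 genes. IL6, IL3RA and IL1R1 were listed in 7, absent from rimonabant replicate 1 and vehicle replicate 2. Hence n is 2 or 3 per treatment for these genes. The library totals implied by the FPKM values were 17078370 to 19277808, and they are not the sums of the listed counts. In vehicle replicate 1 the listed counts add up to 17492638, above its total of 17078370. In TXX-1-10 replicate 2 they add up to 16836181, below its total of 18394759. Which reads these totals count is not known. The lists carried the markers of the line, with VIM at 224 to 329 FPKM and AXL at 124 to 221 FPKM in all 9, whereas the estrogen receptor gene ESR1 had 3 to 8 reads in the 4 lists that hold it. Of the other luminal markers, PGR had 9 to 13 reads in 4 lists, FOXA1 24 to 63 in 6 and GATA3 25 to 86 in 6. Among leukocyte genes, CD3D and CD3E were in no list, LYZ had 0 reads in the 2 lists that hold it, ITGAM had 0 to 2 reads in 3, PTPRC had 1 to 10 in 4, CD14 had 8 to 18 in 5 and CSF1R had 6 to 20 in 6. Rimonabant replicate 1 and TXX-1-10 replicate 3 stood apart from the other libraries. In both, longer genes had fewer counts relative to the other libraries of their treatment, which bears on the longest genes described here, IL6ST and LIFR. Over 4236 genes, Spearman's rho of this difference with length was -0.694 and -0.692, against -0.025 to 0.667 in the others. For the other rimonabant and TXX-1-10 libraries, the reference included the library that stood apart. By the same trend, shorter genes had more counts in rimonabant replicate 1 and TXX-1-10 replicate 3. TXX-1-10 replicate 3 was the highest of its treatment for the short genes CXCL1 and IL3RA, though the lowest for IL6. Rimonabant replicate 1 lists none of these, so only the TXX-1-10 group holds such a library for them.

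The region before the start of transcription is shown for CXCL8, CXCL1, IL6, IL11 and IL3RA, because these genes include the largest changes and all but IL3RA are textbook targets of inducible factors. The RefSeq sequence (GRCh38.p14) runs from 250 bases before to 50 bases after the annotated start, 5′ to 3′ on the strand of the gene, and so ends in the first exon. Of the 10 genes, 9 had at least 1 such sequence in the table used, and LIF had no entry. Capitals mark the letters of the patterns searched on both strands, which were TGACTCA for AP-1, GGNNTTTCC for NF-kB, TTGCNNAA for C/EBP, TTCNNNGAA for STAT and TATAAA for the TATA box.
CXCL8 (chr4:73740319-73740618, plus strand): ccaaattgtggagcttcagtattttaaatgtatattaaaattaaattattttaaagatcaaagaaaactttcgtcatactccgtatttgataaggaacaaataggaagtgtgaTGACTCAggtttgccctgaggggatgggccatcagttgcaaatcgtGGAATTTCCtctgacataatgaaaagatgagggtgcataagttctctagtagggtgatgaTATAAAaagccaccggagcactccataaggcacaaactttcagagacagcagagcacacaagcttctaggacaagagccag
CXCL1 (chr4:73869143-73869442, plus strand): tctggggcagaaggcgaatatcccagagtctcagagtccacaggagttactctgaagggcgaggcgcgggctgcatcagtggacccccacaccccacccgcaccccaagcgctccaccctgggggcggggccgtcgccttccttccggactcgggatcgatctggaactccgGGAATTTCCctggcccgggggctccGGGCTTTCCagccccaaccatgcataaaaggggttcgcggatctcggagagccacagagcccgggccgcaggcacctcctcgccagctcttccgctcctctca
IL6 (chr7:22726950-22727249, plus strand): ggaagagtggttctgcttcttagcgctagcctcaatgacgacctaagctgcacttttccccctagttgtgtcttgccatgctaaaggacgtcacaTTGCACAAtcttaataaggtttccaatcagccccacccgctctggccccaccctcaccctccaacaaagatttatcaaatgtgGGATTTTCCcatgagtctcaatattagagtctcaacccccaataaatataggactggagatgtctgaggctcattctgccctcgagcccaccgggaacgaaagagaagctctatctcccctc
IL11 (chr19:55370414-55370713, minus strand): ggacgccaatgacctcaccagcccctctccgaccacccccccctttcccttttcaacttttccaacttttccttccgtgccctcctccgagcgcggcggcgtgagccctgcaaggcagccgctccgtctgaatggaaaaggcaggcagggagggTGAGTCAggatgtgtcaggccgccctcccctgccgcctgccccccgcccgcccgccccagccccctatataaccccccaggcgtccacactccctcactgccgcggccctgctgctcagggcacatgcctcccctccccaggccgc
IL3RA (chrX:1336535-1336834, plus strand): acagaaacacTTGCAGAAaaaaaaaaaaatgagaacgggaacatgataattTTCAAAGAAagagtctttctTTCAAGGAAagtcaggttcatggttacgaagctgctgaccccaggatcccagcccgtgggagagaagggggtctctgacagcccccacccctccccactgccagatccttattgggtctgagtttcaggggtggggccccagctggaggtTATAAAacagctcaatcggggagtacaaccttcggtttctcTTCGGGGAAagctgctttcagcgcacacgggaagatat
Of 34961 human promoters of the same length, 4.92% hold the AP-1 letters, 6.27% those of NF-kB, 10.4% those of C/EBP, 7.66% those of STAT and 11.5% those of the TATA box. CXCL8 held AP-1 at -137, NF-kB at -91 and a TATA box at -31, where positions give the first base of the match relative to the start. CXCL1 held the NF-kB letters at -78 and again at -53. IL6 held C/EBP at -155 and NF-kB at -72, in a window that lies within the gene interval of the deposited lists, whose IL6 begins farther upstream. IL11 held AP-1 at -96, read on the opposite strand as TGAGTCA. IL3RA held C/EBP at -240, a TATA box at -29 and STAT at -199, -179 and 12, the last of them after the start. No marked match overlaps another in these windows, and the letters for CRE (TGACGTCA, in 1.85% of promoters) and for C/EBP-ATF (TTGCATCA, in 0.864%) occurred in none of the windows of the 10 genes. A match describes the sequence only.

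Changes are given in log2 units from edgeR's quasi-likelihood test, with a standard error (SE) and a p adjusted by Benjamini-Hochberg over all genes of the fit. A called gene is one that moved by 1 log2 unit or more with an adjusted p below 0.05, and a gene is said to have risen or fallen when the adjusted p alone is below 0.05. With TXX-1-10, IL3RA, CXCL8 and LIF were called higher and no member of the group was called lower, that is 3 of 10 where 15.8% of all 12893 tested genes were called (7.28% higher and 8.51% lower). With rimonabant, CXCL8 and IL3RA were called higher and IL6 and IL7R lower, that is 4 of 10 where 2.97% of all genes were called (1.42% higher and 1.55% lower). At the adjusted p alone, 4 rose and 4 fell with TXX-1-10, where 69.0% of all genes passed (33.0% higher and 36.0% lower). With rimonabant, 3 rose and 2 fell, where 40.2% passed (20.9% higher and 19.3% lower). The median change of the 10 genes was 0.16 log2 units with TXX-1-10 and 0.14 with rimonabant, beside -0.02 and 0.00 over all tested genes. Both comparisons use the same vehicle libraries. All 10 genes passed the filter on low counts. They were chosen with earlier results of these data known. The shares above therefore do not test whether cytokine genes changed more often than other genes.

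**Figure D1:**
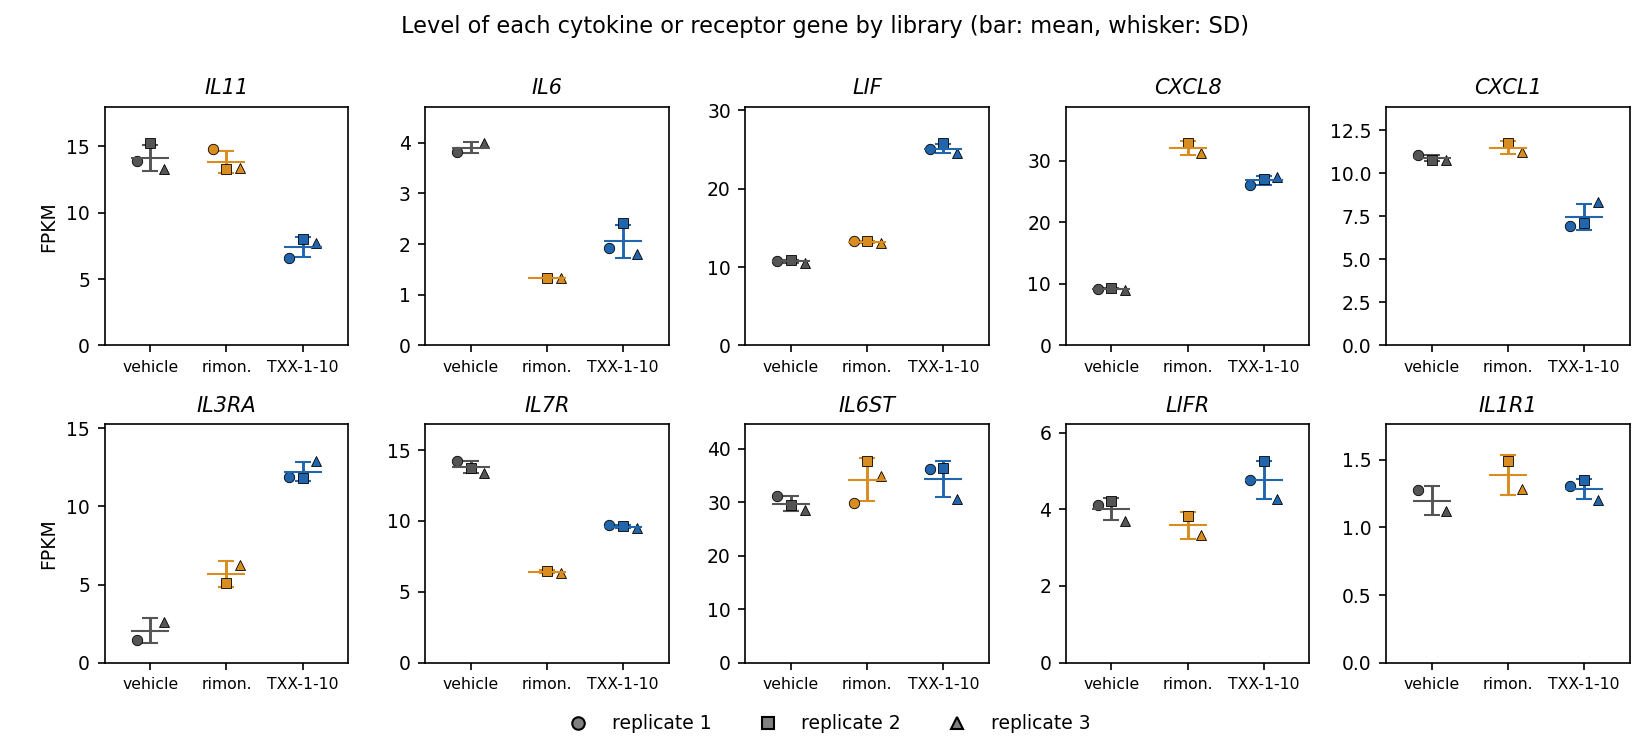
FPKM of each of the 10 genes (vertical axis, from 0, own scale per panel) in each library that lists it, by treatment (horizontal axis); points are libraries, with a symbol for each replicate number, long bars are means and whiskers are SD over 2 or 3 libraries. IL3RA climbs from 1.47 and 2.61 in vehicle to between 11.8 and 12.9 with TXX-1-10, CXCL8 is high under both compounds, and the IL6ST and IL1R1 points of the treatments overlap or lie side by side.

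LIF, a factor of the IL-6 family known for keeping mouse embryonic stem cells undifferentiated, rose under both compounds and was called higher with TXX-1-10. Its FPKM was 10.8, 10.9 and 10.5 in vehicle, 13.3, 13.3 and 13.1 with rimonabant and 25.02, 25.8 and 24.6 with TXX-1-10. The 3 treatments did not overlap, and the spread within each was small beside the gaps between them. Against vehicle the change was 1.23 with TXX-1-10 (SE 0.05, edgeR adjusted p = 5.06e-09), a 2.34-fold rise, and 0.30 with rimonabant (SE 0.05, edgeR adjusted p = 0.000494), which is under the fold threshold. TXX-1-10 against rimonabant gave 0.92 (95% interval 0.83 to 1.02, edgeR adjusted p = 7.03e-08).

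IL11, which acts through gp130 and is known in breast cancer for its part in bone metastasis, fell with TXX-1-10 and not detectably with rimonabant. Its FPKM was 13.9, 15.2 and 13.3 in vehicle and 14.8, 13.3 and 13.3 with rimonabant. With TXX-1-10 it was 6.58, 8.04 and 7.69. The vehicle and rimonabant libraries overlapped, and all 3 TXX-1-10 libraries lay under all 6 others. The change was -0.92 with TXX-1-10 (SE 0.09, edgeR adjusted p = 5.95e-06), a 1.90-fold fall that stayed under the fold threshold for a call. With rimonabant it was -0.03 (95% interval -0.22 to 0.16, edgeR adjusted p = 0.784). The compounds differed by -0.89 (95% interval -1.09 to -0.69, edgeR adjusted p = 1.34e-05).

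IL6, the inflammatory cytokine that gives the family its name, fell under both compounds, and fell farther with rimonabant. Its FPKM was 3.82 and 3.99 in vehicle replicates 1 and 3, 1.34 and 1.33 in rimonabant replicates 2 and 3, and 1.93, 2.42 and 1.81 with TXX-1-10. The TXX-1-10 libraries lay between the other treatments without overlap. These levels rest on 51 to 142 reads per library. The fitted change was -1.55 with rimonabant (SE 0.18, edgeR adjusted p = 0.000121) and -0.93 with TXX-1-10 (SE 0.16, edgeR adjusted p = 0.000239). Without TXX-1-10 replicate 2 the latter was -1.06 (edgeR adjusted p = 8.43e-05), past the fold threshold. TXX-1-10 against rimonabant gave 0.62 (95% interval 0.22 to 1.02, edgeR adjusted p = 0.0126). That difference no longer passed without rimonabant replicate 2 (edgeR adjusted p = 0.0677) or without replicate 3 (edgeR adjusted p = 0.0675).

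CXCL8, the chemokine also named IL-8, rose the most among the secreted factors, and did so under both compounds. Its FPKM was 9.24, 9.33 and 9.09 in vehicle, 32.9 and 31.2 in rimonabant replicates 2 and 3, and 26.1, 27.1 and 27.5 with TXX-1-10. Every treated library lay above every vehicle library, and the rimonabant libraries lay above those of TXX-1-10. Against vehicle, it moved by 1.80 with rimonabant (SE 0.06, edgeR adjusted p = 6.12e-09), a 3.47-fold rise, and 1.54 with TXX-1-10 (SE 0.06, edgeR adjusted p = 2.78e-10), a 2.91-fold rise. TXX-1-10 against rimonabant gave -0.25 (95% interval -0.38 to -0.13, edgeR adjusted p = 0.00246), so CXCL8 was lower with TXX-1-10 than with rimonabant, whereas IL3RA, the other member called under both compounds, was higher.

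CXCL1, which binds the receptor CXCR2 as CXCL8 does, did not move with CXCL8. Its FPKM was 11.1, 10.8 and 10.8 in vehicle, 11.7 and 11.2 with rimonabant and 6.92, 7.13 and 8.34 with TXX-1-10. The TXX-1-10 libraries lay under all others. The change from vehicle was -0.54 with TXX-1-10 (SE 0.09, edgeR adjusted p = 0.000196) and 0.08 with rimonabant (95% interval -0.14 to 0.29, edgeR adjusted p = 0.547). The compounds differed by -0.62 (95% interval -0.84 to -0.40, edgeR adjusted p = 0.000226). In the promoters shown above, CXCL8 and CXCL1 both hold the NF-kB letters, CXCL1 at a pair of places. CXCL8 holds those of AP-1 and CXCL1 does not. IL11, which fell with TXX-1-10, holds the AP-1 letters too. Whether any of these letters bears on the changes was not tested.

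CXCL1 also parted from its nearest relatives, CXCL2 and CXCL3, which come from the list of other chemokine genes. The genes lie on chromosome 4 (GRCh38) within 359 kb, with CXCL8 at 73740506 to 73743716, CXCL1 at 73869393 to 73871242, CXCL3 at 74036589 to 74038807 and CXCL2 at 74097035 to 74099293. CXCL2 had an FPKM of 3.44, 3.29 and 4.30 in vehicle, 10.5 and 10.4 with rimonabant and 25.9, 25.5 and 33.0 with TXX-1-10. CXCL3 had 1.56 and 1.41 in vehicle replicates 1 and 3, 4.91 and 5.16 in rimonabant replicates 2 and 3, and 7.62, 8.45 and 8.69 with TXX-1-10. Both rose in steps from vehicle to rimonabant to TXX-1-10 with no overlap, the reverse of the order of CXCL8 between the compounds. The log2 fold change of CXCL2 was 2.94 with TXX-1-10 and 1.5 with rimonabant (edgeR adjusted p = 1.14e-09 and 1.62e-05), and that of CXCL3 was 2.47 and 1.76 (edgeR adjusted p = 3.00e-08 and 1.65e-05). The exons of CXCL1, CXCL2 and CXCL3 are closely alike, and the values were made from uniquely mapped reads, so stretches that they share may add no reads and the split between them is uncertain.

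**Figure D2:**
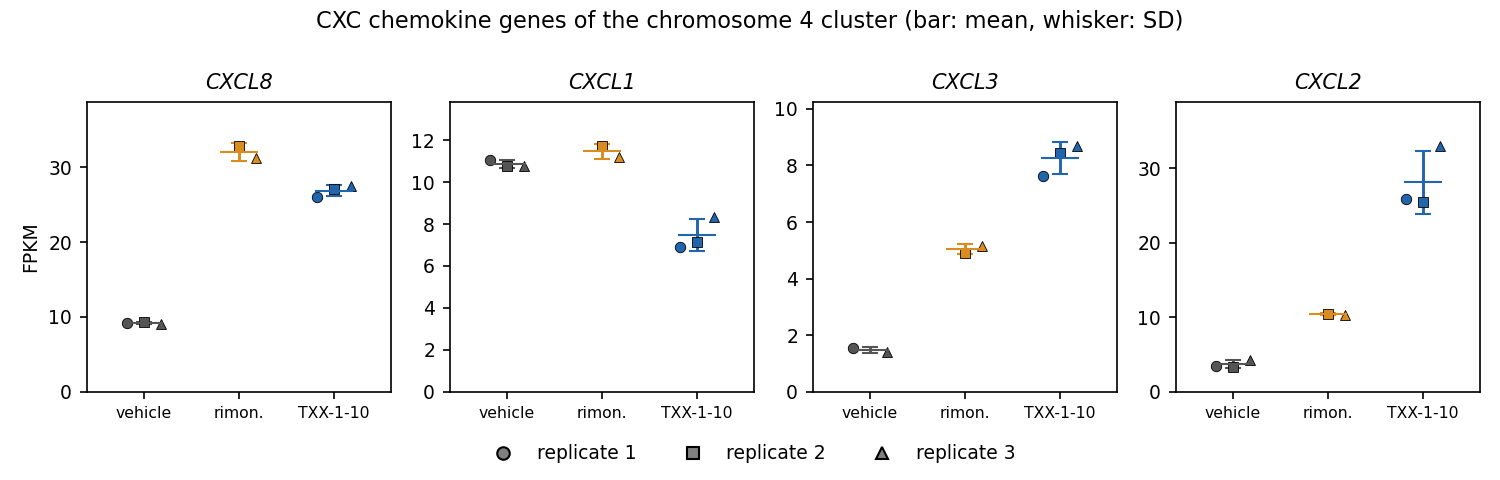
FPKM (vertical axis, from 0) of 4 chemokine genes of chromosome 4 in each library that lists them, by treatment; points are libraries, long bars means and whiskers SD. CXCL2 reaches 25.5 to 33.0 with TXX-1-10 from 3.29 to 4.30 in vehicle, while CXCL1 lies at 6.92 to 8.34 with TXX-1-10, under its vehicle libraries.

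Among the receptors, IL3RA rose most and had the largest change of the 10 genes. It encodes the alpha chain that binds IL-3, a growth factor of blood progenitors. Its FPKM was 1.47 and 2.61 in vehicle replicates 1 and 3, 5.10 and 6.25 in rimonabant replicates 2 and 3, and 11.9, 11.8 and 12.9 with TXX-1-10, from 43 to 407 reads. The treatments stood in 3 steps with no overlap, and the vehicle libraries differed from each other by more than those of any other member in proportion to their mean. edgeR placed the change at 2.58 with TXX-1-10 (SE 0.19, edgeR adjusted p = 3.22e-07), a 5.96-fold rise, and 1.47 with rimonabant (SE 0.22, edgeR adjusted p = 0.000467), a 2.77-fold rise. TXX-1-10 against rimonabant gave 1.11 (95% interval 0.75 to 1.46, edgeR adjusted p = 0.000146), the only call among the 10 genes between the compounds, where 8.04% of all genes were called (3.25% higher and 4.79% lower with TXX-1-10). Without rimonabant replicate 2 this difference was 0.97, under the fold threshold.

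IL3RA lies at 1336616 to 1382689 of chromosome X in the lists, in the pseudoautosomal region, of which a reference genome can hold a copy on each sex chromosome. Over the 7 libraries that list it, the genes of the 11733 tested there whose log2 counts, scaled to library size, followed IL3RA most closely were STARD3 (Pearson r of 0.9987), GIT1 (0.9980) and DYM (0.9971). These libraries fall in 3 treatment groups and share their totals with every gene, so r describes the likeness of the patterns and carries no test. CSF2RB, the second chain that the IL-3 receptor needs to signal, had 0 to 1 reads in the 4 lists that hold it.

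IL7R, the receptor through which IL-7 keeps lymphocytes alive, fell under both compounds, and fell farther with rimonabant. Its FPKM was 14.3, 13.8 and 13.4 in vehicle, 6.50 and 6.33 in rimonabant replicates 2 and 3, and 9.68, 9.62 and 9.47 with TXX-1-10. The treatments did not overlap and the TXX-1-10 libraries lay in the middle, the same order as for IL6. Its change from vehicle was -1.10 with rimonabant (SE 0.06, edgeR adjusted p = 1.28e-07), a 2.15-fold fall, and -0.53 with TXX-1-10 (SE 0.05, edgeR adjusted p = 1.29e-06). TXX-1-10 against rimonabant gave 0.58 (95% interval 0.45 to 0.71, edgeR adjusted p = 5.16e-06).

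IL6ST, the gp130 chain shared by IL6, IL11 and LIF, had the highest FPKM of the 10 genes in every treatment and did not pass the test in any comparison. Its FPKM was 31.2, 29.4 and 28.6 in vehicle, 29.9, 37.7 and 34.9 with rimonabant and 36.1, 36.4 and 30.5 with TXX-1-10. All 3 treatments overlapped, and within each compound the lowest library was the one whose counts fell with gene length. The fit gave 0.21 with TXX-1-10 (SE 0.09, edgeR adjusted p = 0.0654) and 0.20 with rimonabant (SE 0.09, edgeR adjusted p = 0.0990). Between the compounds it was 0.01 (95% interval -0.20 to 0.22, edgeR adjusted p = 0.955). Without those libraries, both differences from vehicle were 0.29 (edgeR adjusted p = 1.76e-06 and 3.42e-06), an alternative chosen after the data were seen.

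LIFR, the partner of gp130 for LIF, was higher with TXX-1-10 than in vehicle (1.19-fold) and than with rimonabant (1.33-fold). Its FPKM was 4.11, 4.23 and 3.70 in vehicle, 3.83 and 3.33 with rimonabant and 4.77, 5.27 and 4.28 with TXX-1-10. The TXX-1-10 libraries lay above all others, the lowest by little, and vehicle and rimonabant overlapped. The change was 0.25 with TXX-1-10 (SE 0.09, edgeR adjusted p = 0.0186), -0.16 with rimonabant (95% interval -0.38 to 0.05, edgeR adjusted p = 0.190) and 0.41 between the compounds (95% interval 0.20 to 0.63, edgeR adjusted p = 0.00281). The first no longer passed without vehicle replicate 3 (edgeR adjusted p = 0.0893) or TXX-1-10 replicate 2 (edgeR adjusted p = 0.0800), and the last without rimonabant replicate 3 (edgeR adjusted p = 0.0503).

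IL1R1, the signalling receptor of interleukin 1, had the lowest level in vehicle and with TXX-1-10 and no detectable change. Its FPKM was 1.27 and 1.12 in vehicle, 1.49 and 1.28 with rimonabant and 1.3, 1.35 and 1.2 with TXX-1-10. The rimonabant libraries lay above those of vehicle by little and the TXX-1-10 libraries overlapped both. The fitted change was 0.10 with TXX-1-10 (95% interval -0.19 to 0.40, edgeR adjusted p = 0.515), 0.21 with rimonabant (95% interval -0.11 to 0.53, edgeR adjusted p = 0.281) and -0.11 between the compounds (95% interval -0.39 to 0.18, edgeR adjusted p = 0.501).

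The partners of these receptors and factors were read as well, and were picked for their role after the lists were seen. IL2RG, the chain that IL7R needs to signal, the ligand IL3 and the chemokine receptors CXCR1 and CXCR2 were in none of the lists used here, which is not a level of 0. The ligand IL7 had 21 to 49 reads in 6 lists. IL1RAP, the second chain of the IL-1 receptor, had 276 to 547 reads in 8 lists, and the ligands IL1A and IL1B had 18 to 43 in 5 and 50 to 90 in 8. IL11RA, the binding chain for IL11, had 42 to 107 reads in 6 lists.

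**Figure D3:**
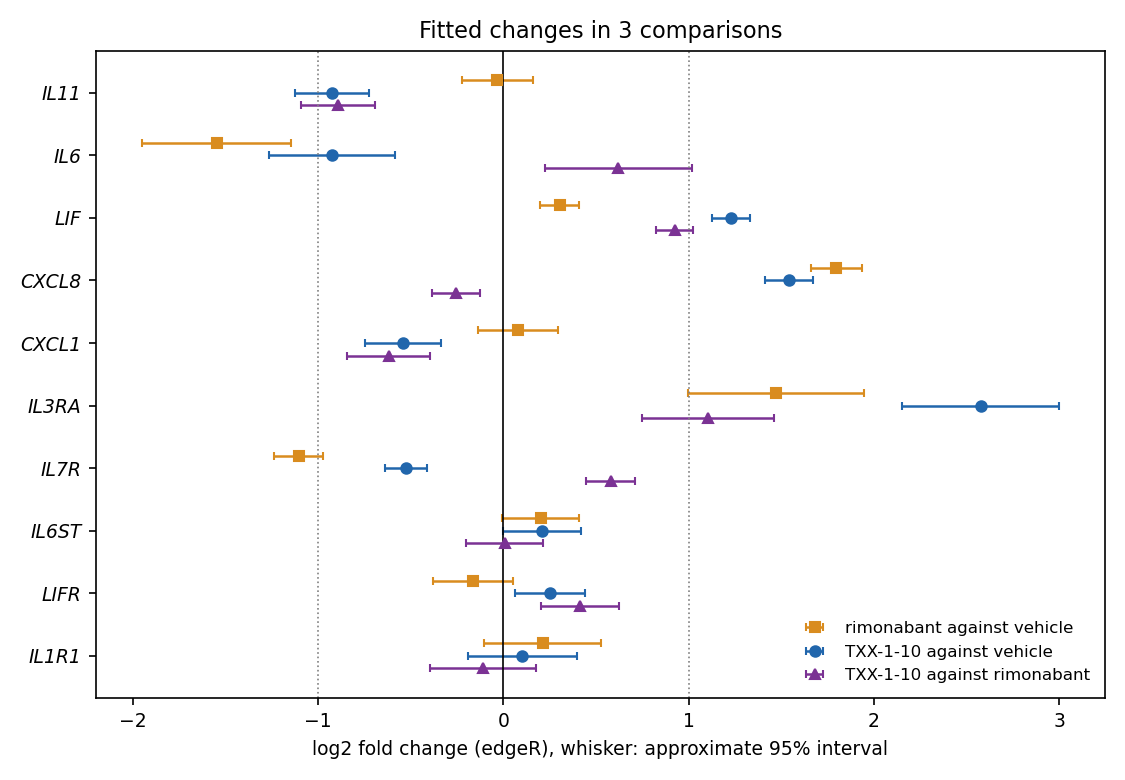
Log2 fold change of the 10 genes (horizontal axis) with approximate 95% intervals (whiskers) for rimonabant against vehicle (squares), TXX-1-10 against vehicle (circles) and TXX-1-10 against rimonabant (triangles); dotted lines mark -1 and 1. IL3RA with TXX-1-10 lies farthest right at 2.58 and IL6 with rimonabant farthest left at -1.55.

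Between the compounds, 5 of the 10 genes were higher with TXX-1-10 at the adjusted p alone (IL3RA, LIF, IL6, IL7R and LIFR), 3 were lower (IL11, CXCL1 and CXCL8) and 2 did not pass (IL6ST and IL1R1), where 55.1% of all tested genes passed (25.2% higher and 29.8% lower with TXX-1-10). For IL3RA and LIF the change from vehicle was the greater with TXX-1-10, and for IL6, IL7R and CXCL8 it was the greater with rimonabant. LIFR rose with TXX-1-10 and did not pass with rimonabant. The difference between the compounds no longer passed for IL6 without rimonabant replicate 2 or 3, and for LIFR without rimonabant replicate 3. IL11 and CXCL1 fell with TXX-1-10 and did not pass with rimonabant, with a difference between the compounds that passed.

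The order of the levels changed with treatment. In vehicle, mean FPKM ran from IL6ST (29.7 ± 1.34, SD, n = 3) through IL11 (14.1 ± 1.0, n = 3), IL7R (13.8 ± 0.430, n = 3), CXCL1 (10.9 ± 0.174, n = 3), LIF (10.7 ± 0.192, n = 3), CXCL8 (9.22 ± 0.123, n = 3), LIFR (4.01 ± 0.280, n = 3), IL6 (3.90 ± 0.116, n = 2) and IL3RA (2.04 ± 0.808, n = 2) to IL1R1 (1.2 ± 0.106, n = 2). Of these neighbours, IL11 and IL7R, CXCL1 and LIF, and LIFR and IL6 overlapped in their libraries. With rimonabant CXCL8 stood next to IL6ST (32.1 ± 1.15, n = 2, and 34.2 ± 3.98, n = 3). Their ranges overlapped only through the IL6ST value of replicate 1 (29.9), whose list lacks CXCL8. In replicates 2 and 3 IL6ST (37.7 and 34.9) lay above CXCL8 (32.9 and 31.2). IL6 was lowest with rimonabant (1.33 ± 0.00380, n = 2), overlapping IL1R1 (1.39 ± 0.151, n = 2). With TXX-1-10 the order from the top was IL6ST (34.3 ± 3.31), CXCL8 (26.9 ± 0.711), LIF (25.1 ± 0.617) and IL3RA (12.2 ± 0.620), each with n = 3 and none overlapping the next. IL3RA thus moved from the ninth place in vehicle to the fourth. FPKM is per kilobase, which is what allows levels of different genes to be set side by side. The length trend of rimonabant replicate 1 and TXX-1-10 replicate 3 still bears on this order. The levels of CXCL1 and IL3RA may also be too low where reads did not map uniquely.

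The genes around these cytokines were read from 6 lists, which, like the 10 genes, were chosen with earlier results of these data known. Their counts stand beside the shares over all tested genes, of which 69.0% passed and 15.8% were called with TXX-1-10 and 40.2% passed and 2.97% were called with rimonabant. In the list of gp130 and JAK-STAT signalling, 29 of 35 genes were tested, and with TXX-1-10 16 rose and 9 fell at the adjusted p, with 3 called higher and 1 lower and a median of 0.21. With rimonabant 8 rose and 5 fell, with 1 called higher and a median of 0.08. IL6R, the binding chain for IL6, rose from 1.08, 1.2 and 1.19 FPKM in vehicle to 2.43 and 2.40 with rimonabant and to 3.73, 3.59 and 3.70 with TXX-1-10. It moved by 1.67 with TXX-1-10 and 1.06 with rimonabant (edgeR adjusted p = 3.18e-09 and 6.15e-06), while IL6 itself fell. SOCS3, the inhibitor that STAT3 induces to restrain gp130, was at 19.2, 18.3 and 19.6 FPKM in vehicle and 19.9 and 19.7 with rimonabant, and at 8.29, 8.23 and 8.49 with TXX-1-10. It moved by -1.19 with TXX-1-10 (edgeR adjusted p = 2.84e-09) and 0.06 with rimonabant (edgeR adjusted p = 0.450). ADAM17, a protease that sheds IL6R from the cell surface, rose with TXX-1-10 with a log2 fold change of 1.04 (edgeR adjusted p = 4.04e-07). ADAM10, another protease of this list, fell with TXX-1-10 with a log2 fold change of -0.95 (edgeR adjusted p = 2.30e-07), under the fold threshold. Shedding of IL6R was not tested.

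In the list of IL-1 receptor and NF-kB signalling, 30 of 35 genes were tested. With TXX-1-10 13 rose and 8 fell, with 4 called higher and 3 lower and a median of 0.05, and with rimonabant 14 rose and 5 fell, with none called and a median of 0.21. IRAK2, of the family of IL-1 receptor-associated kinases, went from 7.21, 8.19 and 7.42 FPKM in vehicle to 13.7 and 12.5 with rimonabant and 26.2, 25.1 and 26.5 with TXX-1-10, with a log2 fold change of 1.77 with TXX-1-10 (edgeR adjusted p = 2.48e-10). RELB, a subunit of NF-kB, went from 5.46, 6.25 and 5.11 to 9.21 and 9.23 and to 15.0, 14.6 and 16.8, with 1.46 (edgeR adjusted p = 1.34e-08). IL18, a cytokine of the IL-1 family, fell from 10.9, 10.6 and 10.5 to 8.09 and 8.73 and to 3.43, 2.79 and 3.49, with -1.72 (edgeR adjusted p = 6.93e-09). IRAK2 and RELB, like CXCL2, thus stood in 3 steps while IL1R1 itself showed no detectable change. Of the same family as IRAK2, IRAK3 was called lower with TXX-1-10 (log2 fold change of -1.19, edgeR adjusted p = 4.71e-08). IRAK1 and IRAK4 did not pass with TXX-1-10 (edgeR adjusted p = 0.595 and 0.615).

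In the list of other chemokines and their receptors, 20 of 38 genes were in the longest list and 4 were in enough lists to be tested, and CXCL2 and CXCL3, given above, were called higher under both compounds. The list of C/EBP factors and of proteins that stabilize or degrade cytokine mRNA had 21 of 25 genes tested. With TXX-1-10 10 rose and 8 fell, with 6 called higher and 1 lower and a median of 0.05, and with rimonabant 6 rose and 5 fell, with none called and a median of 0.07. CEBPB, a factor first described as a nuclear factor of IL6, was at 75.8, 71.1 and 65.2 FPKM in vehicle, 86.2, 77.0 and 87.8 with rimonabant and 153, 147 and 191 with TXX-1-10. It moved by 1.21 with TXX-1-10 (edgeR adjusted p = 1.93e-06) and 0.24 with rimonabant (edgeR adjusted p = 0.0715), while IL6 fell in both. CEBPG rose by a log2 fold change of 1.62 with TXX-1-10 and 0.64 with rimonabant (edgeR adjusted p = 9.05e-10 and 5.71e-06), and ZFP36, which marks cytokine mRNAs for decay, by 1.08 and 0.22 (edgeR adjusted p = 3.09e-08 and 0.0378).

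**Figure D4:**
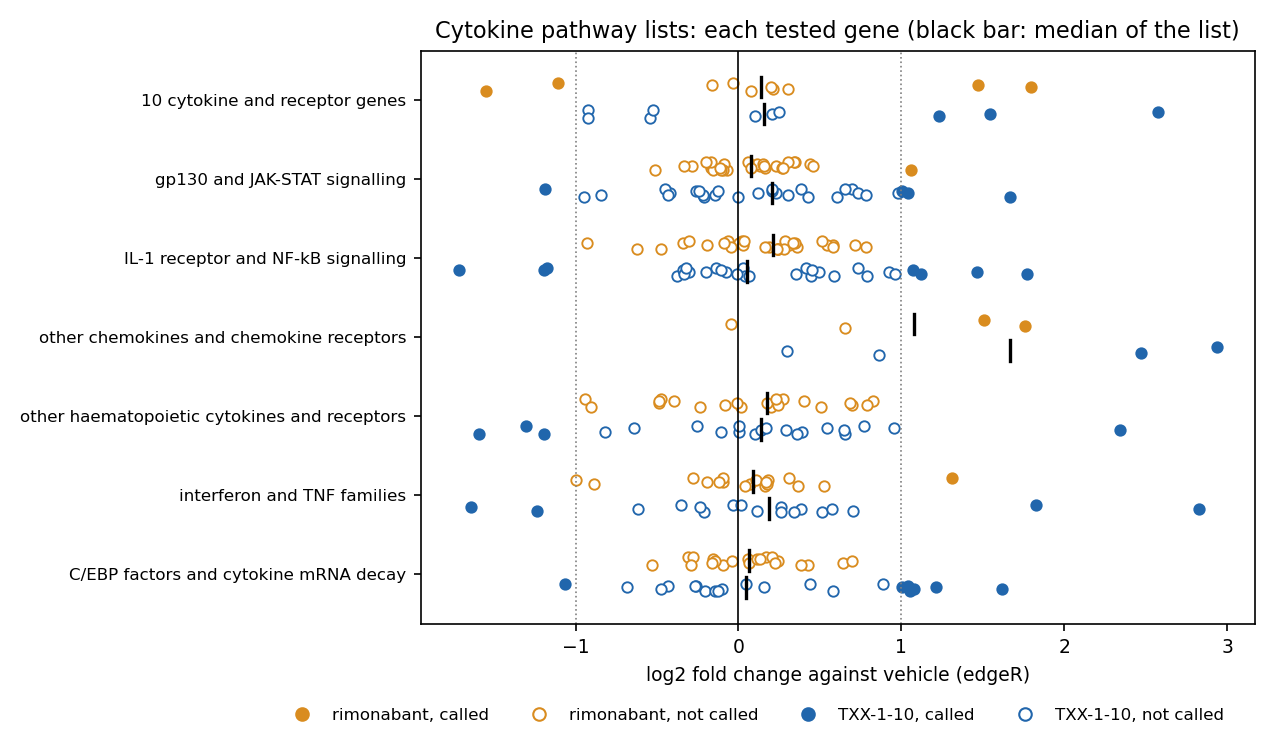
Log2 fold change against vehicle (horizontal axis) of every tested gene of the 10 cytokine and receptor genes and of 6 cytokine pathway lists, with rimonabant (orange) and TXX-1-10 (blue); filled points were called, open points were not, and black bars are list medians. Called genes lie on both sides of 0 with TXX-1-10 in most lists, and the medians of all lists but the 4 tested chemokine genes lie between 0.05 and 0.21.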

How the data were processed

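Polyadenylated RNA of MDA-MB-231 cells was sequenced in 9 libraries (oligo(dT) beads, NEBNext Ultra, Illumina), with treatments taken from the sample labels. The authors deposited whole-number read counts per gene, which are not normalized, and beside each an FPKM value, the count divided by gene length and a library total. The submitters' processing notes name HISAT2 2.0.5 and featureCounts 1.5.0-p3, and the paper's methods name uniquely mapped exonic reads, RPKM and Cufflinks. Whether counting used the strand is not given in the sources used here, so the reads of up to 797 exonic bases that IL6, LIF, IL6ST, LIFR and IL1R1 share with genes of the opposite strand cannot be told apart. Gene coordinates are those of GENCODE 29 (GRCh38).

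The library size was the total that each FPKM value implies, given its count and gene length. Counts were tested with edgeR 4.0.16 in R 4.3.3 (estimateDisp, glmQLFit, glmQLFTest) on all genes with a mean count of at least 10. Because the lists end at different points, 4 fits were made, on the genes shared by 9, 8, 7 and 6 libraries (4236, 9395, 11733 and 12893 genes), and each gene was read from the fit with most libraries. The SE and 95% interval of a change follow from the F statistic and are approximate. Separate cultures are not stated, so p-values measure the spread between these libraries, which may be technical. No replicate pair agreed within sampling noise (chi-square per degree of freedom of 2.29 to 42.2). The last, incomplete line of each list was dropped.

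The members and lists were chosen with earlier results of these data known. Named genes are the 10 members, up to 3 genes per list with the largest change among those called with TXX-1-10, and 3 genes most like the member that rose most. The partners of the receptors, ADAM10, IRAK1, IRAK3 and IRAK4, outside this rule, were named for their role or family. Alternatives were TMM, DESeq2 1.42.0, limma 3.58.1 on log2(FPKM + 1) or log2(FPKM + 0.1), other low filters, a replicate block, a correction for gene length (lowess span of 0.3), fits of the groups compared only, calls at any fold, and each library left out in turn. Fits were tested on simulated data. Figures were drawn with Python 3.11.15 and matplotlib 3.10.9.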

Additional observations from a re-analysis of the deposited data

How the results depend on the processing

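Under 22 alternatives, no difference of the 10 genes that passed its test changed direction. Of 600 values recomputed for single genes, 575 kept their side of the adjusted p, 20 gained it and 5 lost it. The gains concern IL6ST and LIFR, the longest genes. IL6ST with TXX-1-10 passed with TMM (0.31, edgeR adjusted p = 0.0198), with DESeq2 (0.31, adjusted p = 0.00320) and with a correction for gene length (0.28, edgeR adjusted p = 0.00157), with adjusted p of 1.76e-06 to 0.184 over all alternatives. TMM and DESeq2 moved the median of all genes with TXX-1-10 by 0.099 and 0.10 in the fit of 9 libraries.

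Between the compounds 1 gene was called, IL3RA. The count was 2, with LIF added at a log2 fold change of 1.01 to 1.04, under TMM, DESeq2, the length correction and the length correction with the replicate block, and 0 with limma on log2(FPKM + 1), where IL3RA was at 0.99. With each library left out it was 0 to 1. Against vehicle, the members called with rimonabant were 3 instead of 4 with limma on log2(FPKM + 1), where IL7R was at -0.996, and those called with TXX-1-10 were 4 instead of 3 without TXX-1-10 replicate 2, with IL6 added, and 3 without any other single library. Without the fold threshold, 8 of the 10 genes passed with TXX-1-10, 5 with rimonabant and 8 between the compounds. Over all 12893 tested genes, 69.0%, 40.2% and 55.1% passed. These member counts draw on the fits of 9, 8 and 7 libraries. The fit of 9 libraries alone tests 4236 genes, with IL11, LIF and IL6ST among them. In it 3151 genes passed with TXX-1-10, 2071 with rimonabant and 2732 between the compounds, instead of 500, 48 and 251. With the replicate number as a block, the genes called in that fit were 501, 48 and 250, and the members called 4, 4 and 1. The fourth member with TXX-1-10 was IL6, at -1.01. Same-numbered deviations from the group means correlated from -0.789 to 0.828 over 9 pairs, and 3 of 9 libraries correlated best with their own number. Rimonabant replicate 1 and TXX-1-10 replicate 3, with their length trend, weigh on these deviations. The check therefore cannot decide whether the numbers pair the libraries.

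Levels of IL6, IL3RA and IL1R1 rest on the fewest reads, and with 2 libraries in vehicle and with rimonabant their errors are the least certain. Intervals cover the spread between libraries.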

Other observations

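The list of other haematopoietic cytokines and receptors had 21 of 45 genes tested. Over all tested genes 69.0% passed and 15.8% were called with TXX-1-10, and 40.2% passed and 2.97% were called with rimonabant. With TXX-1-10 9 rose and 5 fell, with 1 called higher and 3 lower and a median log2 fold change of 0.14, and with rimonabant 8 rose and 3 fell, with none called and a median of 0.18. EPOR, the erythropoietin receptor, went from 2.53, 3.22 and 3.0 FPKM in vehicle to 4.19 and 5.17 with rimonabant and 14.0, 14.4 and 16.0 with TXX-1-10. It moved by 2.34 with TXX-1-10 and 0.68 with rimonabant (edgeR adjusted p = 1.47e-09 and 0.00120), the same 3 steps as IL3RA. PRLR and IL12A were called lower with TXX-1-10 (log2 fold changes of -1.59 and -1.30, edgeR adjusted p = 0.00263 and 0.00444) on 13 to 61 and 14 to 54 reads in the 6 libraries that list them.

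The list of interferon and TNF families had 18 of 34 genes tested. With TXX-1-10 7 rose and 6 fell, with 2 called higher and 2 lower and a median of 0.19, and with rimonabant 5 rose and 3 fell, with 1 called higher and a median of 0.09. TNFSF15, a TNF family ligand, had 0.126 and 0.169 FPKM in vehicle, 0.135 and 0.137 with rimonabant and 1.03, 1.12 and 1.02 with TXX-1-10. These levels rest on few reads, 17 and 23 in vehicle, 20 and 20 with rimonabant and 156, 163 and 148 with TXX-1-10. Against vehicle, TNFSF15 moved by 2.83 with TXX-1-10 (edgeR adjusted p = 1.43e-07) and -0.12 with rimonabant (edgeR adjusted p = 0.786). TNFSF9, the ligand of 4-1BB, a receptor found on T cells, rose under both (log2 fold changes of 1.83 and 1.31, edgeR adjusted p = 1.65e-07 and 5.87e-05). TNFRSF21, a receptor with a death domain, fell under both, from 25.4, 23.4 and 25.1 FPKM in vehicle to 12.7, 12.1 and 12.2 with rimonabant and 7.95, 7.98 and 7.78 with TXX-1-10. It moved by -1.64 with TXX-1-10 (edgeR adjusted p = 2.11e-09) and -1.0 with rimonabant (edgeR adjusted p = 6.93e-07), the latter just short of a call.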
